A study of Homo sapiens with 6 samples.

Results

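The HOX genes of the 4 human clusters were followed on arrays of A673 and SK-N-MC cells. A gene was taken where a probe set carried a single annotated symbol made of HOXA, HOXB, HOXC or HOXD and a number from 1 to 13. This gave 27 genes of the 18417 measured, each with 1 probe set, out of the 39 genes that the clusters hold. The HOXA cluster on chromosome 7 contributed 1 gene of 11, the HOXB cluster on chromosome 17 all 10, the HOXC cluster on chromosome 12 7 of 9, and the HOXD cluster on chromosome 2 all 9. The other 12 were not analysed here. One further probe set, 7955873, is annotated to both HOXC6 and HOXC4 and cannot be given to either. Its level was 4.42, 4.59 and 4.59 in A673 and 4.96, 4.66 and 4.90 in SK-N-MC with siDKK2, siITM2A and the control siRNA.

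HOX genes encode homeodomain transcription factors that give cells their position along the head-to-tail axis and along the limbs. Within a cluster the genes lie in the order in which they are used, from the low numbers in the hindbrain and neck to the high numbers in the lower trunk, the tail and the ends of the limbs, and genes of the same number in different clusters are paralogs. Polycomb complexes keep the clusters silent and trithorax complexes keep them active, while HOX proteins bind DNA with cofactors of the TALE class such as PBX and MEIS. Ewing sarcoma arises in bone or soft tissue and carries a gene fusion that joins EWSR1 to an ETS factor, and it is known for its expression of posterior HOXD genes.

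The study used 6 Affymetrix whole-transcript arrays, 1 for each combination of 2 established Ewing tumour lines and 3 siRNAs. In A673 and in SK-N-MC, cells received an siRNA against DKK2, an siRNA against ITM2A or a control siRNA. DKK2 is a secreted modulator of Wnt signalling and ITM2A a membrane protein. The labels give the ITM2A siRNA different numbers in the 2 lines, so it may not have been the same molecule in both. SK-N-MC was originally described as a neuroblastoma line. Each line is a single line, so a difference between them belongs to these cultures and not to tumours.

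Values are log2 RMA levels, on which a difference of 1 is a 2-fold change. The array medians over all probe sets lay between 3.35 and 3.44. The level of DKK2 was 7.73, 9.13 and 8.64 in A673 and 6.50, 7.94 and 8.01 in SK-N-MC with siDKK2, siITM2A and control, and that of ITM2A was 9.21, 5.03 and 8.52 in A673 and 9.66, 6.10 and 9.48 in SK-N-MC, so each target was lowest under its own siRNA in both lines. Of the Ewing sarcoma marker list 11 of 12 genes were measured, with levels that ran widely. They went from 2.68 for the lowest array of GLI1 to 10.73 for the highest of CD99, the surface marker used in diagnosis. In A673 3 were called higher (27.3%) and 3 lower (27.3%), against 13.8% and 14.7% of all genes. Of the neuroblastoma list 7 of 8 were measured, between 2.41 and 4.93 over all arrays, and HAND2, a sympathetic lineage factor, was called higher in A673 (0.74 ± 0.12, limma adjusted p = 0.00145). It was the only call in that list, or 14.3%, near the 13.8% of all genes called higher. The 5 genes of the myogenic list lay between 2.04 and 4.05.

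The strongest signals of the whole set came from the posterior end of the HOXD cluster. HOXD13, HOXD11 and HOXD10 were the only members above the 75th percentile of all 33297 probe sets on each of the 6 arrays, and HOXD12, the gene between HOXD13 and HOXD11, lay between the 9.5th and the 24.5th percentile. The 250 bases upstream of the RefSeq transcript start of these 4 neighbours are shown because these genes lie side by side and gave such different signals (RefSeq, GRCh38.p14, + strand, 5′ to 3′, at chr2:176092471-176092720, chr2:176099545-176099794, chr2:176107030-176107279 and chr2:176116528-176116777). Capitals mark CG dinucleotides, the sites of DNA methylation.
HOXD13: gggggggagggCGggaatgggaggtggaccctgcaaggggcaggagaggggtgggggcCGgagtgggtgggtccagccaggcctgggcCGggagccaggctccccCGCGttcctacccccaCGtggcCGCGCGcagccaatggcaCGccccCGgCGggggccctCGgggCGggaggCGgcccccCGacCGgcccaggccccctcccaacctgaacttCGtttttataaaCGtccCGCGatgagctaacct
HOXD12: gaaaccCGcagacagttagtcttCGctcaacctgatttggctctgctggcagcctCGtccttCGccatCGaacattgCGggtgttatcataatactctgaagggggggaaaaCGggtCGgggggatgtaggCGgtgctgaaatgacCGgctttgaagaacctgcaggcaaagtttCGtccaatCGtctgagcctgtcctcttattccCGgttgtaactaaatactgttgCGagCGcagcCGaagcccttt
HOXD11: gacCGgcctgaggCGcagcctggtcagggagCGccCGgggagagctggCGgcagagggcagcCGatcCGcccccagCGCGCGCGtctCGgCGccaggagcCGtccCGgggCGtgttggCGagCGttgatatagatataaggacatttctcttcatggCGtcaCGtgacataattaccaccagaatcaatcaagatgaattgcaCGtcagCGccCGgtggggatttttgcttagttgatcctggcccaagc
HOXD10: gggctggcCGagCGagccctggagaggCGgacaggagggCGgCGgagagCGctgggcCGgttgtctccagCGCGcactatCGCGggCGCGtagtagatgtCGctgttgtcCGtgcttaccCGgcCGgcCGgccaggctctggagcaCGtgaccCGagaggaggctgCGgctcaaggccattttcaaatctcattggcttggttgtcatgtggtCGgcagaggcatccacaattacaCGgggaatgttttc

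Counted in these windows, CG occurred 21 times upstream of HOXD13, 16 times upstream of HOXD12, 23 times upstream of HOXD11 and 23 times upstream of HOXD10, where the median over 35116 promoter windows of the same length was 11. All 4 are thus richer in CG than most promoters, and 59% of all windows had fewer CG than that of HOXD12. The ETS core GGAA, searched on both strands as GGAA or TTCC, was present 2 times for HOXD13, 2 times for HOXD12, 1 time for HOXD10 and not in the HOXD11 window, and 92.7% of all windows hold at least 1. TATAAA, searched on both strands as TATAAA or TTTATA, was found 2 times in the HOXD13 window, where the 2 matches overlap, and in none of the other 3. Among all windows 10.7% hold it. Such matches describe the letters only. Of the 9 HOXD genes 8 had a window in the table, and their CG counts ran from 4 for HOXD4 to 31 for HOXD1. HOXD9 was matched by no entry.

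HOXD13 specifies the digits and the genital tubercle. Its level was 7.67, 7.91 and 7.76 in A673 (siDKK2, siITM2A and control, the order kept for each line below) and 8.36, 8.66 and 8.77 in SK-N-MC. Each A673 array lay below each SK-N-MC array. HOXD11, which acts with its paralogs in the forearm and the kidney, was at 7.22, 7.17 and 6.96 in A673 and at 6.24, 6.40 and 6.30 in SK-N-MC. HOXD10, a gene of the hindlimb and the lumbar spinal cord, had 8.15, 8.21 and 7.74 in A673 and 7.33, 7.42 and 7.18 in SK-N-MC. For both genes the lines were separated the other way, with each A673 array above each SK-N-MC array. HOXD12 measured 2.01, 2.32 and 2.07 in A673 and 2.13, 2.23 and 2.27 in SK-N-MC, with the lines overlapping. Probe sets differ in how well their probes bind and signal over background was not measured, so a low value does not show that HOXD12 is silent.

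Going towards the anterior end, HOXD9 had 6.63, 6.37 and 6.12 in A673 and 5.42, 5.59 and 5.65 in SK-N-MC, and HOXD8 had 5.93, 5.42 and 4.82 in A673 and 4.02, 4.56 and 4.30 in SK-N-MC. Both act along the trunk, and the lines did not overlap for either. HOXD4, a gene of the hindbrain and neck, was even across siRNAs, at 5.77, 5.78 and 5.88 in A673 and at 4.98, 4.98 and 4.93 in SK-N-MC. HOXD3, which patterns the first neck vertebrae in mice, had 3.47, 3.07 and 3.18 in A673 and 2.59, 3.14 and 3.01 in SK-N-MC, and the lines overlapped. It lay between percentiles 33.1 and 51.6 of all probe sets. HOXD1, at the anterior end, had 3.61, 3.62 and 3.69 in A673 and 3.98, 3.91 and 3.85 in SK-N-MC, a small gap with no overlap.

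**Figure D1:**
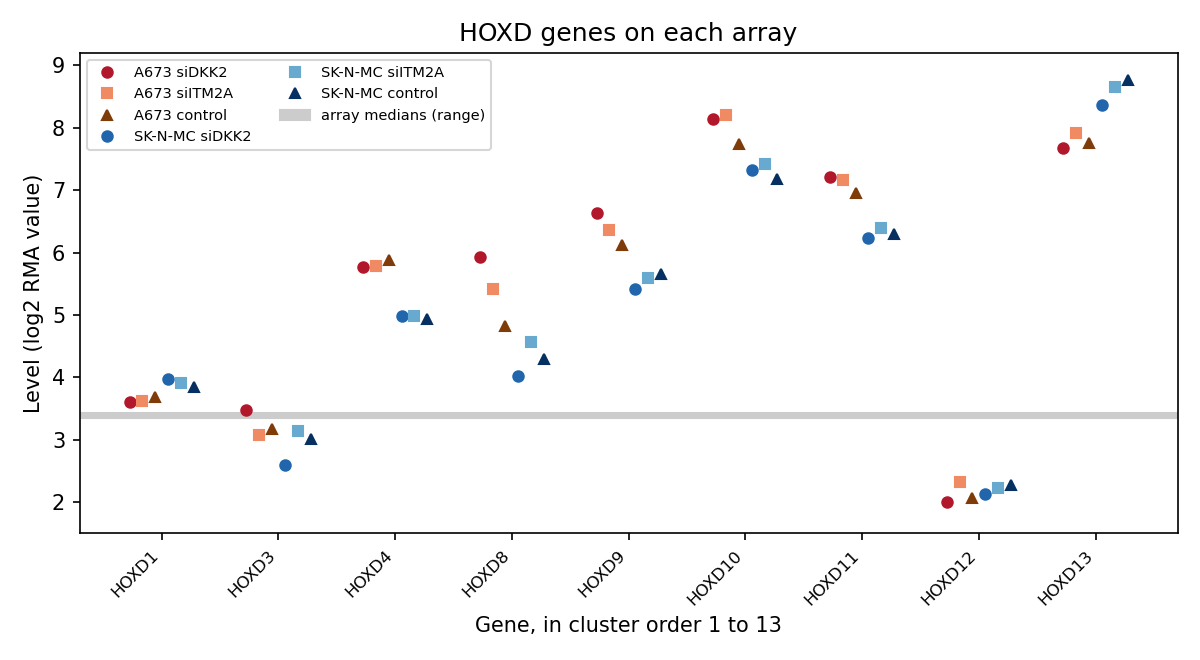
Level of each HOXD gene (y axis, log2 RMA value) on each of the 6 arrays, in cluster order along the x axis, with 1 point per array, A673 in red and brown and SK-N-MC in blue; the grey band is the range of the array medians, 3.35 to 3.44. HOXD8 to HOXD11 sit higher in A673, HOXD13 sits lower in A673, and HOXD12 sits below the band on all 6 arrays.

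In the other clusters no member reached the 75th percentile on all arrays. The HOXB genes lay between 2.41 and 5.82 and the HOXC genes between 2.51 and 5.76, where the HOXD genes ranged from 2.01 to 8.77. Over the whole set 18 members were above the median probe set on each array and 6 were below it on each array, namely HOXA2, HOXB1, HOXB5, HOXB8, HOXC5 and HOXD12. HOXA2, which patterns the second pharyngeal arch and is the sole member from its cluster, had 2.52, 2.16 and 2.36 in A673 and 2.45, 2.29 and 2.46 in SK-N-MC, and the lines overlapped.

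**Figure D2:**
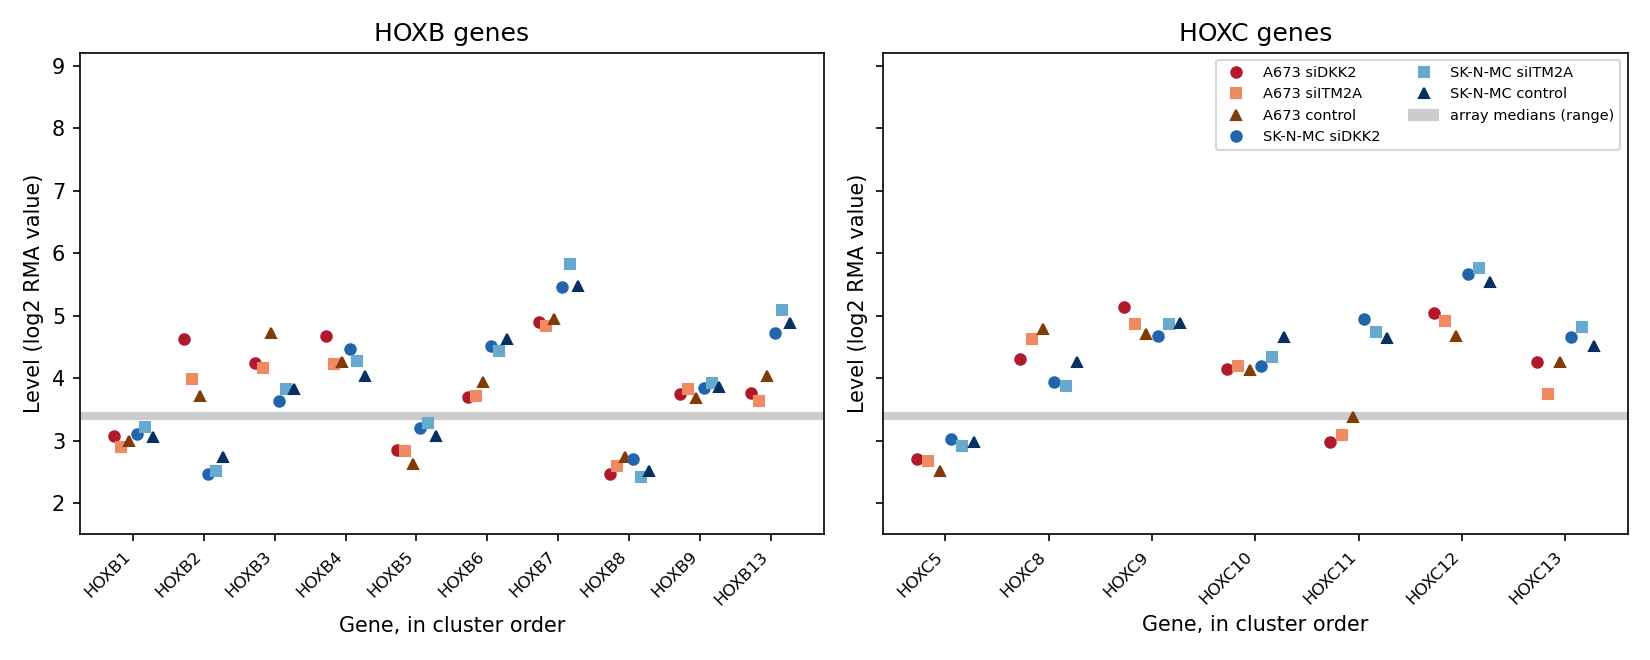
Level of each HOXB gene (left) and each measured HOXC gene (right) on each array (y axis, log2 RMA value), in cluster order along the x axis, with 1 point per array and the grey band at the range of the array medians, 3.35 to 3.44. HOXB2 and HOXC11 show the widest gaps between A673 (red and brown) and SK-N-MC (blue), in opposite directions.

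A673 and SK-N-MC differed at 17 of the 27 HOX genes, 8 of them higher and 9 lower in A673. The difference ran in blocks along the HOXD cluster: HOXD4 and HOXD8 to HOXD11 were higher in A673, and HOXD13 at the posterior end was lower. All 3 measured genes of paralog group 13 were lower in A673, though HOXC13 did not pass without the siITM2A arrays. The widest gaps were 2.91-fold for HOXB2, higher in A673, and 3.12-fold for HOXC11, lower in A673.

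These calls come from limma, fitted to all 18417 genes with cell line and siRNA as terms, at an adjusted p under 0.05. The 17 called members are 63% of the set, against 28.5% of all genes called in this comparison. The 8 higher members are 29.6%, against 13.8% of all genes, and the 9 lower members are 33.3%, against 14.7%. Calls were more frequent at higher levels, where the level is a gene's mean over all arrays and the median is over genes, not over all probe sets. Among genes at or above the median level 13 of 16 HOX genes were called, against 44.6% of all such genes, and below it 4 of 11, against 12.4%. The lines' arrays did not overlap for 19 of the 27 genes, or 70.4%, against 38.9% of all genes. A difference of at least 2-fold was called for 4 members, or 14.8%, against 8.03% of all genes. The median difference over the 27 genes was -0.08, against -0.02 over all genes. In each line the 3 arrays are 3 siRNAs and not repeat cultures, so these p-values measure the spread between arrays that the model leaves. In RNA of whole cultures, fewer cells carrying a transcript and less of it per cell cannot be told apart.

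In the HOXD cluster 5 of 9 genes were higher and 1 was lower, with a median difference of 0.73 (all genes: 13.8% higher, 14.7% lower, median -0.02). HOXD8 was higher in A673 by 1.10 ± 0.23 (SE; limma adjusted p = 0.00687), which is 2.14-fold. Without the siDKK2 arrays the difference was 0.69, still past the threshold (limma adjusted p = 0.00971). HOXD4 was higher by 0.85 ± 0.11 (limma adjusted p = 0.000438), the steadiest of the block, since its gap was 0.79, 0.79 and 0.95 under the siDKK2, siITM2A and control siRNAs. The 3 genes next to each other between HOXD8 and HOXD12 had differences of 0.82 ± 0.15 for HOXD9, 0.73 ± 0.11 for HOXD10 and 0.80 ± 0.11 for HOXD11, with limma adjusted p of 0.0031, 0.00127 and 0.000801 in that order. HOXD13 was lower in A673 (-0.82 ± 0.11, limma adjusted p = 0.000737). HOXD12 (-0.08 ± 0.11, limma adjusted p = 0.689), HOXD3 (0.33 ± 0.17, 0.215) and HOXD1 (-0.27 ± 0.11, 0.0965) did not pass. The HOXD3 value turned on single siRNAs, at 0.06 without the siDKK2 arrays and 0.53 without the siITM2A arrays, and passed in neither case.

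Among the 10 HOXB genes 2 were higher in A673 and 4 were lower, with a median of -0.13 (all genes: 13.8% higher, 14.7% lower, median -0.02). HOXB2, which acts in the hindbrain, had 4.63, 3.98 and 3.72 in A673 and 2.47, 2.52 and 2.73 in SK-N-MC. It lay above the array medians over all probe sets on each A673 array and below them on each SK-N-MC array. The difference was 1.54 ± 0.20 (limma adjusted p = 0.000483). HOXB3, its neighbour in the cluster and in the hindbrain, had 4.24, 4.16 and 4.72 in A673 and 3.64, 3.83 and 3.83 in SK-N-MC, a difference of 0.61 ± 0.13 (limma adjusted p = 0.00773).

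From HOXB5 on the called differences had the opposite sign. HOXB13, a regulator of prostate development, had 3.76, 3.63 and 4.04 in A673 and 4.72, 5.09 and 4.88 in SK-N-MC, without overlap, and differed by -1.08 ± 0.14 (limma adjusted p = 0.000489). HOXB6 and HOXB7, trunk genes also used in blood cells, differed by -0.75 ± 0.10 and -0.69 ± 0.13 (limma adjusted p = 0.000769 and 0.00332). HOXB5, known from enteric neural crest, was dim in both lines and differed by -0.41 ± 0.10 (limma adjusted p = 0.0172). Its call was lost without the control arrays or without the siITM2A arrays (limma adjusted p = 0.0635 and 0.0941). HOXB1, HOXB4, HOXB8 and HOXB9 did not pass, with differences between -0.14 and 0.13.

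Of the 7 HOXC genes 1 was higher and 4 were lower in A673, with a median of -0.34 (all genes: 13.8% higher, 14.7% lower, median -0.02). HOXC11, a gene of the lumbosacral region and hindlimb, had 2.97, 3.09 and 3.37 in A673 and 4.95, 4.74 and 4.64 in SK-N-MC. No A673 array came within 1 log2 unit of any SK-N-MC array, and the difference was -1.64 ± 0.14 (limma adjusted p = 6.23e-05). It is the reverse of its HOXD paralog, HOXD11, which was higher in A673. Its neighbour HOXC12 had 5.04, 4.92 and 4.68 in A673 and 5.66, 5.76 and 5.53 in SK-N-MC (difference -0.77 ± 0.11, limma adjusted p = 0.00086).

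HOXC13, a gene of hair and nails, had 4.26, 3.75 and 4.25 in A673 and 4.65, 4.82 and 4.51 in SK-N-MC, and differed by -0.57 ± 0.16 (limma adjusted p = 0.0279). The siITM2A arrays carry much of that gap, since without them the difference was -0.32 and did not pass (limma adjusted p = 0.158). HOXC8, which marks the thoracic and brachial trunk, was the HOXC gene higher in A673, with 4.31, 4.62 and 4.78 against 3.93, 3.87 and 4.26 in SK-N-MC, where the gap was 0.55 ± 0.11 (limma adjusted p = 0.00712). Without the siITM2A arrays it was 0.45 and did not pass (limma adjusted p = 0.0655). HOXC5, dim in both lines, differed by -0.34 ± 0.11 (limma adjusted p = 0.0448) and its call was lost without the arrays of any 1 siRNA (limma adjusted p between 0.0982 and 0.194). HOXC9 and HOXC10, genes of thoracic and lumbar identity, did not pass (0.10 ± 0.14 and -0.23 ± 0.12, limma adjusted p = 0.699 and 0.223).

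Set out by paralog group, members of the same number did not all move together. In group 13 HOXB13, HOXC13 and HOXD13 were all lower in A673, and in group 5 HOXB5 and HOXC5 were. Group 8 had HOXC8 and HOXD8 higher while HOXB8 did not pass. Among these calls, those of HOXB5, HOXC5, HOXC8 and HOXC13 were lost in some or all fits that left out the arrays of an siRNA. In group 11 the 2 measured genes were called in opposite directions.

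**Figure D3:**
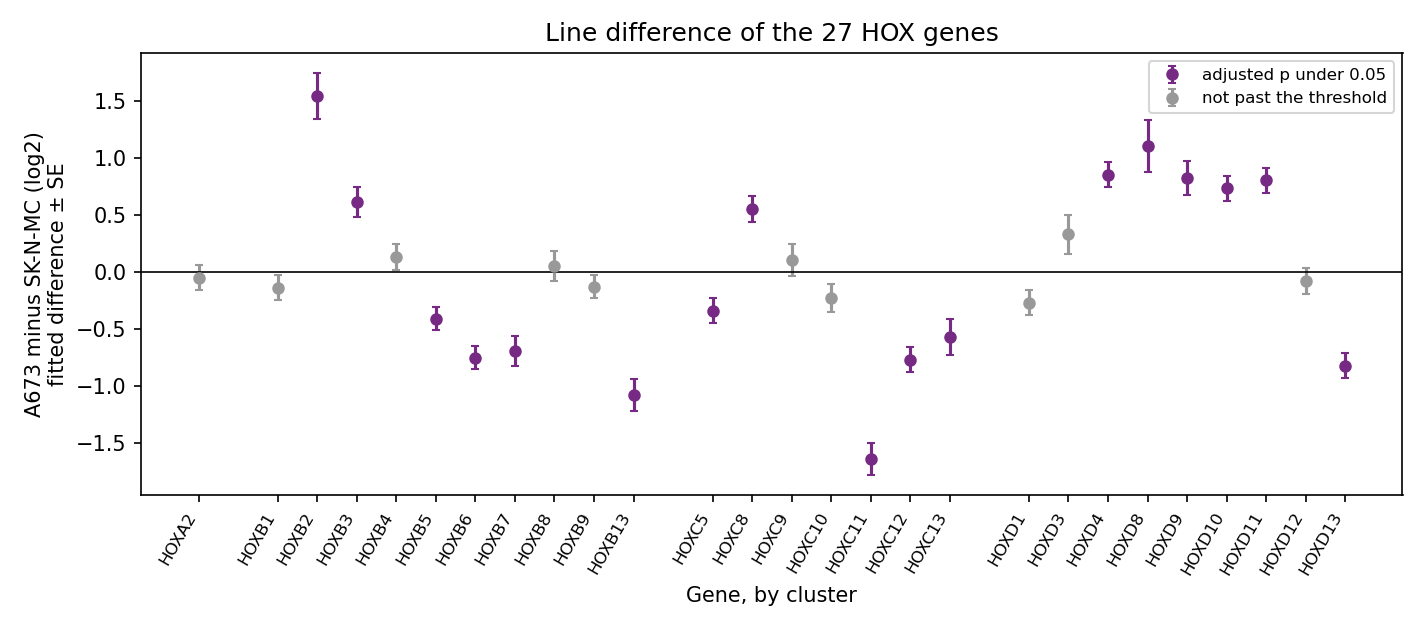
Fitted difference between A673 and SK-N-MC (y axis, log2, A673 minus SK-N-MC, bars ± SE from limma on 6 arrays) for the 27 HOX genes, ordered along the x axis by cluster and number. Purple points passed an adjusted p under 0.05; the run from HOXD8 to HOXD11 lies above 0 and the 3 genes numbered 13 lie below it.

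Knockdown of DKK2 or of ITM2A moved no HOX gene past the threshold. The fit called only 2 of 18417 genes for either siRNA against control, so this does not show that the HOX genes did not respond. DKK2 itself was at 7.73 with siDKK2 and 8.64 with control in A673, and at 6.50 and 8.01 in SK-N-MC. The largest single difference of a HOX gene was for HOXD8, whose level in A673 was 1.11 higher with siDKK2 than with the control siRNA. In SK-N-MC the same difference was -0.28. Apart from the fit over both lines, the values that follow are those of 1 array against 1 array within a line, with no test.

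In limma's fit over both lines 0 of 27 members were called for siDKK2 against control (0.0109% of all genes), 0 for siITM2A against control (0.0109%) and 0 for siDKK2 against siITM2A (0.0163%). At an unadjusted p under 0.05 there were 2, 1 and 1 members, or 7.41%, 3.7% and 3.7%, against 8.68%, 6.91% and 8.32% of all genes. Those shares are no higher than over all genes. Both siRNA groups are set against the same control arrays.

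The 2 members under an unadjusted p of 0.05 for siDKK2 against control were HOXB4 and HOXC8. HOXB4, known for expanding blood stem cells, had 4.67 with siDKK2 and 4.26 with control in A673, and 4.46 with siDKK2 and 4.03 with control in SK-N-MC. The differences of 0.42 and 0.43 were alike in both lines, and the fitted value was 0.42 ± 0.14 (SE; limma adjusted p = 0.45). With siITM2A the HOXB4 differences were -0.03 and 0.25. HOXC8 differed by -0.47 in A673 and by -0.34 in SK-N-MC (fitted -0.40 ± 0.14, limma adjusted p = 0.487), and with siITM2A by -0.16 and -0.39. For siITM2A against control the 1 such member was HOXD10, at 0.47 in A673 and at 0.24 in SK-N-MC (fitted 0.36 ± 0.13, limma adjusted p = 0.707), with siDKK2 values of 0.41 and 0.14. For siDKK2 against siITM2A it was HOXB4 (0.31 ± 0.14, limma adjusted p = 0.594).

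Along the HOXD cluster in A673 the differences of siDKK2 from control were -0.08 for HOXD1, 0.28 for HOXD3, -0.11 for HOXD4, 1.11 for HOXD8, 0.50 for HOXD9, 0.41 for HOXD10, 0.26 for HOXD11, -0.06 for HOXD12 and -0.10 for HOXD13. From HOXD8, where the value was largest, they were lower at each next gene up to HOXD13. In SK-N-MC the same genes gave 0.13, -0.41, 0.05, -0.28, -0.23, 0.14, -0.06, -0.14 and -0.40. The run in A673 was thus not seen in the other line. With siITM2A the A673 values were -0.08, -0.11, -0.10, 0.60, 0.25, 0.47, 0.21, 0.25 and 0.15, and the SK-N-MC values were 0.06, 0.13, 0.06, 0.26, -0.06, 0.24, 0.10, -0.03 and -0.11. In A673 HOXD8 to HOXD11 were thus lowest on the control array, and both sets of differences share that array. Whether the A673 control array is low for these genes or the knockdown arrays are high cannot be told apart with 1 array each.

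**Figure D4:**
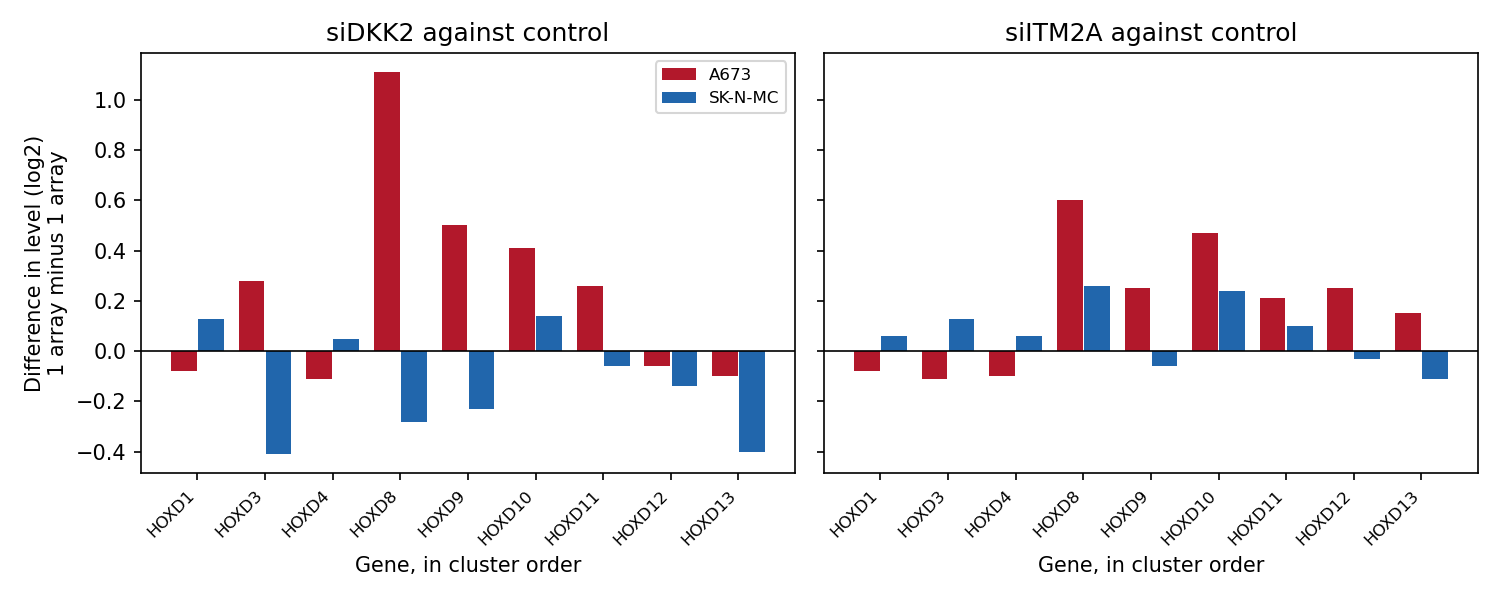
Difference in level (y axis, log2, 1 array minus 1 array) of each HOXD gene for siDKK2 against control (left) and siITM2A against control (right), in cluster order along the x axis, with A673 in red and SK-N-MC in blue; there are no error bars because each bar rests on 2 arrays. HOXD8 in A673 has the longest bar in both panels, at 1.11 and 0.60.

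HOXD8 was the 1 member at least 2-fold higher with siDKK2 in A673 (2.16-fold), which is 3.7% of the set, against 0.0869% of all genes. At 1.5-fold there were 2 members, HOXD8 and HOXB2 (1.87-fold), or 7.41%, against 1.55%. In SK-N-MC 0 members were 1.5-fold higher or lower with siDKK2, against 1.06% and 1.84% of all genes, and 0 with siITM2A, against 1.28% and 1.59%. No member reached 1.5-fold the same way in both lines with siDKK2, against 0.478% of all genes, nor with siITM2A, against 0.255%. HOXB2 had 4.63 with siDKK2 against 3.72 with control in A673, and 2.47 with siDKK2 against 2.73 with control in SK-N-MC. With siITM2A in A673 1 member was at least 1.5-fold higher, HOXD8 at 1.52-fold, or 3.7%, against 1.29%. The lowest A673 differences were those of HOXB3, at -0.48 with siDKK2 and -0.56 with siITM2A.

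HOXD13 differed from control by -0.10 with siDKK2 in A673 and by -0.40 in SK-N-MC (fitted -0.25 ± 0.14, limma adjusted p = 0.664). With siITM2A it differed by 0.15 and -0.11. Set against siITM2A, siDKK2 gave -0.24 for A673 and -0.29 for SK-N-MC (fitted -0.27 ± 0.14, limma adjusted p = 0.657).

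Taken over the set, the median difference of siDKK2 from control was 0.07 for A673 and -0.03 for SK-N-MC, against -0.04 and -0.01 over all genes. With each array centred on its median, or after quantile normalization, the A673 value was 0.14. The siITM2A medians were -0.03 for A673, which became 0.01 after quantile normalization, and 0.06 for SK-N-MC. By size, disregarding sign, the median siDKK2 difference of the HOX genes was 0.26 in A673, against 0.17 over all genes, and 0.14 in SK-N-MC, against 0.15. The same contrast appears in the range over the 3 arrays of a line, which had a median of 0.35 over the HOX genes in A673, against 0.26 over all genes, and of 0.23 in SK-N-MC, against 0.25. HOXD8 had the widest range in A673, at 1.11, and HOXD3 in SK-N-MC, at 0.54. No test was made of these differences in spread.

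Genes that act with or on the HOX clusters were read from the same fit, in which 28.5% of all genes were called, 13.8% higher and 14.7% lower in A673. Of 7 measured TALE cofactors 2 were lower (28.6%) and none was higher, so the share called was that of all genes: MEIS1, a HOX cofactor of blood progenitors (-1.40 ± 0.13, limma adjusted p = 7.39e-05), and PBX3, another cofactor (-0.69 ± 0.11, 0.00142). MEIS1 had 7.37, 7.25 and 6.94 in A673 and 8.70, 8.42 and 8.63 in SK-N-MC. Of 18 Polycomb genes 8 were lower (44.4%, against 14.7% of all genes) and none was higher, with a median of -0.38. Their share called is close to the 44.6% of all genes at or above the median level, but that share counts both directions. When only those genes were fitted, 25.6% were called lower and 22.9% higher. They included SUZ12 (-1.44 ± 0.10, limma adjusted p = 2.02e-05) and JARID2 (-1.29 ± 0.13, 0.000123), both of the complex that methylates lysine 27 of histone H3, a catalytic subunit of it, EZH1 (-1.15 ± 0.12, 0.000143), and RING1, a ubiquitin ligase of the other complex (-1.09 ± 0.10, 0.000104). Of 13 trithorax and demethylase genes 1 was higher (7.69%) and 5 were lower (38.5%), against 13.8% and 14.7% of all genes. Together 46.2% of that list were called in either direction. That is also close to the 44.6% of all genes at or above the median level. KMT2A, the histone methyltransferase known for keeping HOX genes active, was higher in A673 by 1.12 ± 0.11 (limma adjusted p = 0.000115), while KDM6A, which removes the Polycomb mark, was lower (-0.74 ± 0.11, 0.000959).

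Retinoic acid and caudal factors switch on HOX genes in the embryo, and 6 of 16 genes of that list were lower in A673 (37.5%, against 14.7% of all genes) and none higher. ALDH1A1, which makes retinoic acid, had 2.76, 2.91 and 2.52 in A673 and 6.72, 7.40 and 7.18 in SK-N-MC, a difference of -4.37 ± 0.15 (limma adjusted p = 3.57e-07). CYP26B1, which degrades it, differed by -1.86 ± 0.19 (limma adjusted p = 0.000134), and the receptors RARG and RXRB by -1.12 ± 0.14 and -0.82 ± 0.11 (0.00047 and 0.000601). Whether any of these genes bears on the HOX levels was not tested.

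Of 15 genes that flank the clusters 1 was higher in A673 and 3 were lower, with a median of -0.16, and this share called, 26.7%, is near the 28.5% of all genes. Beside the HOXD cluster EVX2, the homeobox gene next to HOXD13, differed by -0.30 ± 0.14 (limma adjusted p = 0.164), LNPK by -0.30 ± 0.11 (0.0751) and MTX2, beyond HOXD1, by -0.16 ± 0.10 (0.322), and none of the 3 passed. ATP5MC3, farther out beyond LNPK, was lower in A673 (-0.42 ± 0.11, limma adjusted p = 0.0185), on a probe set that read only 3.32 to 3.87 over all arrays. PRAC1, next to HOXB13, was lower in A673 like HOXB13 itself (-0.91 ± 0.15, limma adjusted p = 0.0018). Within the clusters the 4 measured microRNA precursors and the 2 measured antisense RNAs had no called difference between the lines. MIR10B, which lies near HOXD4, was between 1.80 and 1.96 on all arrays.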

How the data were processed

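Expression in A673 and SK-N-MC cells was measured from total RNA on 6 Affymetrix whole-transcript arrays, 1 per line and siRNA, grouped by the labels. Per the submitters' processing notes, the authors used Affymetrix Expression Console and RMA, which corrects background, normalizes between arrays and summarises probes. The deposited values were taken as log2, since they run between 1.02 and 13.35 and no label states the scale. RMA compresses differences of dim probe sets. Build and software version: not given in the sources used here. Of 33297 probe sets 19460 had 1 symbol in the platform's annotation, 1754 had several and 12083 were not listed, and 19429 Entrez numbers matched the current gene table. Per gene the probe set with the highest mean was kept, giving 18417 genes.

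With limma 3.58.1 under R 4.3.3, lmFit and eBayes fitted to all genes an additive model of cell line and siRNA with 2 residual degrees of freedom, moderated to 8.28. By the labels the cell line pairs arrays of different siRNAs, and it was kept as a block. P-values were adjusted by Benjamini-Hochberg over all genes, with a threshold of 0.05. Within a line there is 1 array per siRNA, so neither a response there nor its difference between lines was tested. The number of arrays limits the precision. The members and lists were chosen with earlier results of these data known. Every HOX gene could be named; of the other lists, up to 4 members with the largest called line difference, the target genes, markers and genes flanking a cluster. GLI1 was named after its values were seen. Promoter windows came from RefSeq (GRCh38.p14), cut to the 250 bases upstream. Alternatives were other normalizations, moderation, filters, probe set rules and blocks, and leaving out each array.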

Additional observations from a re-analysis of the deposited data

Results flagged for a closer look

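In 5 cases a HOX gene differed from control by at least 1.2-fold in opposite directions in the 2 lines. With siDKK2 HOXB2 differed by 0.91 in A673 and by -0.26 in SK-N-MC, HOXC11 by -0.40 and 0.31, HOXD3 by 0.28 and -0.41, and HOXD8 by 1.11 and -0.28. With siITM2A HOXC13 differed by -0.50 in A673 and by 0.30 in SK-N-MC. The difference between the lines was not tested in any of them, since each value rests on 1 array against 1 array. With siDKK2 these were 4 of 27 HOX genes (14.8%), against 638 of 18417 genes (3.46%), and with siITM2A 1 of 27 (3.7%), against 581 genes (3.15%).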

How the results depend on the processing

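The count of HOX genes called between A673 and SK-N-MC was 17, with 28.5% of all genes called, and lay between 13 and 17 over the alternatives. It was 17 without the siRNA block (26.3% of all genes) and 16 with an intensity trend (29.3%). After quantile normalization it was 16 (29.2%), and after median centring 17 (29.5%). When dim genes were left out it was 13 of the 16 tested, against 48.6% of all genes then tested. When 1 array was left out it was 15 for a control array (24.9% of all genes), 16 for an siDKK2 array (23.4%) and 13 for an siITM2A array (20.2%). The counts for the 3 siRNA comparisons were 0 under every alternative run, including the fit with no replicate block and the fits on the 4 arrays compared. Leaving out an array in the line comparison gives the same value as leaving out both arrays of its siRNA. The line difference of HOXB8, 0.05, became -0.03 without the control arrays and -0.02 without the siITM2A arrays (range -0.03 to 0.20), and that of HOXC9, 0.10, became -0.09 without the siDKK2 arrays (range -0.09 to 0.23). None of these passed. The fitted siDKK2 difference of HOXD8, 0.42, became -0.02 when the A673 control array was left out and -0.19 when the A673 siDKK2 array was, and that of HOXB2, 0.32, became -0.09 and -0.15 without the same arrays. Over all 6 arrays left out in turn the HOXD8 value ran from -0.19 to 1.02 and the HOXB2 value from -0.15 to 0.79. On the 2 control arrays alone, a value with no test, 17 of the 27 line differences moved by more than the residual spread: HOXD8 was 0.52, HOXD9 0.47 and HOXB2 0.99, and HOXC9, not called, turned to -0.17. HOXC13, within that spread, was -0.26. Of the tested single-gene line values 318 kept direction and side of the threshold and 16 lost the call. The calls of HOXB5, HOXC8 and HOXC13 were lost with an array left out. That of HOXC5 was lost in this way and also with an intensity trend or quantile normalization. These counts take both arrays of an siRNA separately although leaving out either gives the same fit, so they overstate the number of distinct checks. Each HOX gene had 1 probe set, so no second probe set could be compared. Signal over background was not measured, and 2 residual degrees of freedom limit what siRNA difference could be called.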
